A study of Homo sapiens with 12 samples.

Results

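The 10 genes described here encode 7 matrix metalloproteinases (MMP1, MMP3, MMP7, MMP10, MMP13, MMP9 and MMP14) and 3 tissue inhibitors of metalloproteinases (TIMP1, TIMP2 and TIMP3). They were taken by gene name from the 58302 genes of the expression table, and each name matched a single row. The 5 genes of the cluster at 11q22 (MMP1, MMP3, MMP7, MMP10 and MMP13) are described apart from the other 5. Messenger RNA was measured by RNA sequencing in 4 pancreatic cancer cell lines with 3 replicates each, 12 libraries in all. BxPC-3 and CFPAC-1 are established human pancreatic adenocarcinoma lines that were the drug-sensitive parental cells. The resistant lines CFPAC-1-GR and BxPC-3-GR came from them through long exposure to rising concentrations of gemcitabine (GEM), a nucleoside drug that blocks DNA synthesis, and the final concentration was higher for BxPC-3-GR. The labels give a mesenchymal morphology for BxPC-3-GR and an epithelial one for the other 3 lines. A single resistant line was derived from each parent, so GEM resistance and the history of that selection cannot be told apart. The labels do not say whether the replicates were separate cultures, and if they were not, the p-values cover only the technical spread between these libraries.

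MMPs are zinc-dependent endopeptidases that are made as inactive proenzymes and cut collagens, proteoglycans and many secreted or membrane proteins. TIMPs bind the active site of MMPs and block it, so the output of the system depends on the amounts of both and on the activation of the proenzymes. In pancreatic cancer the family is known for its part in invasion and in the dense stroma, where fibroblasts and immune cells are also sources of several members. RNA levels do not measure enzyme activity.

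The shared core of the family is the zinc-binding site of the catalytic domain. Its coding stretch is printed for the 7 MMP members because it shows how alike the genes are at the site that TIMPs block and how they differ around it. Sequences were read 5′ to 3′ from the GENCODE 29 transcripts, and capitals mark the codons of the 3 histidines that hold the zinc ion.
MMP1: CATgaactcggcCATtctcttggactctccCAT
MMP3: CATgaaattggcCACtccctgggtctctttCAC
MMP7: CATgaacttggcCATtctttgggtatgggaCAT
MMP10: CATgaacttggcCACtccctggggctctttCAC
MMP13: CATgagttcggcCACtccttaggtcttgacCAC
MMP9: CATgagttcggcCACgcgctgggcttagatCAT
MMP14: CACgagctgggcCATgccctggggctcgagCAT
Over the whole coding sequence, MMP3 and MMP10 were identical at 84.9% of alignment positions, with gaps counted as differences. Their transcripts shared a run of 96 bases. All other pairs of cluster members were identical at no more than 64.0%, and the longest runs shared by their transcripts were between 10 and 19 bases. Fragments could therefore be split between MMP3 and MMP10, and the low MMP3 values are uncertain. The 5 cluster genes lie on the minus strand of chromosome 11 within 435 kb (GRCh38, 102520508 to 102955734), from MMP7 through MMP10, MMP1 and MMP3 to MMP13. MMP14 lies on chromosome 14 (22836557 to 22849027), MMP9 on chromosome 20 (46008908 to 46016561), TIMP1 on chromosome X (47582313 to 47586789), TIMP2 on chromosome 17 (78852977 to 78925387) and TIMP3 on chromosome 22 (32801701 to 32863043). WTAPP1, a transcript of the opposite strand, shares 150 exon bases with MMP1 and 32 with MMP3, and its FPKM did not pass 0.311 in any library. The sources used here do not say whether strand was used in counting, so fragments of such overlaps cannot be told apart.

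Levels are given in FPKM, fragments scaled by exon length and by library total, which can be set side by side between genes. The table holds no read totals. In genes with a single exon the low values were whole multiples of the value of 1 fragment (93.6% to 95.6% of values, tolerance 0.02), and these steps gave totals of about 12600000 to 25200000 fragments per library. All 6 ductal and epithelial markers (KRT7, KRT8, KRT18, KRT19, EPCAM and CDH1) reached 1 FPKM on average in each of the 4 lines. Of the 6 fibroblast markers, 5 stayed below 1 FPKM in every line, and their summed level was 0.746 to 4.12 FPKM. Of the 3 leukocyte markers PTPRC was at 0, while the sum of the list, mostly CD68, ranged from 1.07 to 3.97 FPKM over both BxPC-3 lines. It was higher in CFPAC-1 (35.4 to 45.2) than in its resistant line (at most 13.7). The 3 endothelial markers stayed below 1 FPKM. The mesenchymal genes did not move together in BxPC-3-GR, the line labelled mesenchymal. VIM had 5.51 to 7.25 FPKM in BxPC-3 and 0.686 to 0.891 in BxPC-3-GR. CDH2 was higher in the resistant line, with 1.57 to 2.32 FPKM in BxPC-3 and 4.86 to 6.35 in BxPC-3-GR. FN1 was higher too, with 5.11 to 5.50 and 8.82 to 9.33 FPKM. ZEB1 stayed below 1 in all lines. The sum of all 4 mesenchymal markers (with CDH2 and FN1) was 12.4 to 15.1 FPKM in BxPC-3, 14.7 to 16.6 in BxPC-3-GR and at least 85.2 in the CFPAC-1 lines. Genes rich in GC had lower log2 differences of CFPAC-1-GR from CFPAC-1 than genes poor in GC, with a Spearman's rho of -0.777 between difference and GC content (12030 genes, not independent of each other). In BxPC-3-GR against BxPC-3 this rho was 0.0388. It was -0.628 for BxPC-3 against CFPAC-1 and 0.0189 for BxPC-3-GR against CFPAC-1-GR. The trend was thus present in both comparisons that use the parental CFPAC-1 libraries and near 0 in the others, so the deposited CFPAC-1 levels stand apart from those of the other 3 lines in this respect. MMP7 and MMP13 are poor in GC (41.3% and 38.9% of the longest transcript), whereas MMP14 and TIMP1 are rich in it (58.9% and 57.9%). Values from a fit that removes the trends with GC content and length, called GC correction below, are given beside the CFPAC-1 results, and the origin of the trend was not tested. In bulk RNA, fewer cells of a type and less RNA per cell cannot be told apart.

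The lines differed in which MMP they expressed. MMP1, the interstitial collagenase, was the most abundant of the 10 genes in BxPC-3, with 228, 224 and 234 FPKM. MMP7, matrilysin, a small enzyme without the hemopexin domain of most MMPs, was the most abundant in CFPAC-1, with 184, 169 and 169.8 FPKM, and in CFPAC-1-GR, with 295, 287 and 264. In BxPC-3-GR the highest member was MMP14, a membrane-anchored MMP that activates other proenzymes, with 95.3, 97.3 and 112 FPKM. The leading genes stood clear of the gene next in order in each of the 4 lines. TIMP1, which inhibits most secreted MMPs, came next or next but one everywhere, with means from 30.2 to 105 FPKM. In CFPAC-1-GR its range overlapped that of TIMP2. MMP3 and MMP9 had the lowest ceilings, with no library above 0.423 and 0.765 FPKM. MMP3 was listed at 0 in all 3 CFPAC-1 libraries, where 3 fragments would have given 0.0754 to 0.116 FPKM. MMP9 in BxPC-3 rested on about 7 to 8 fragments per library.

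**Figure D1:**
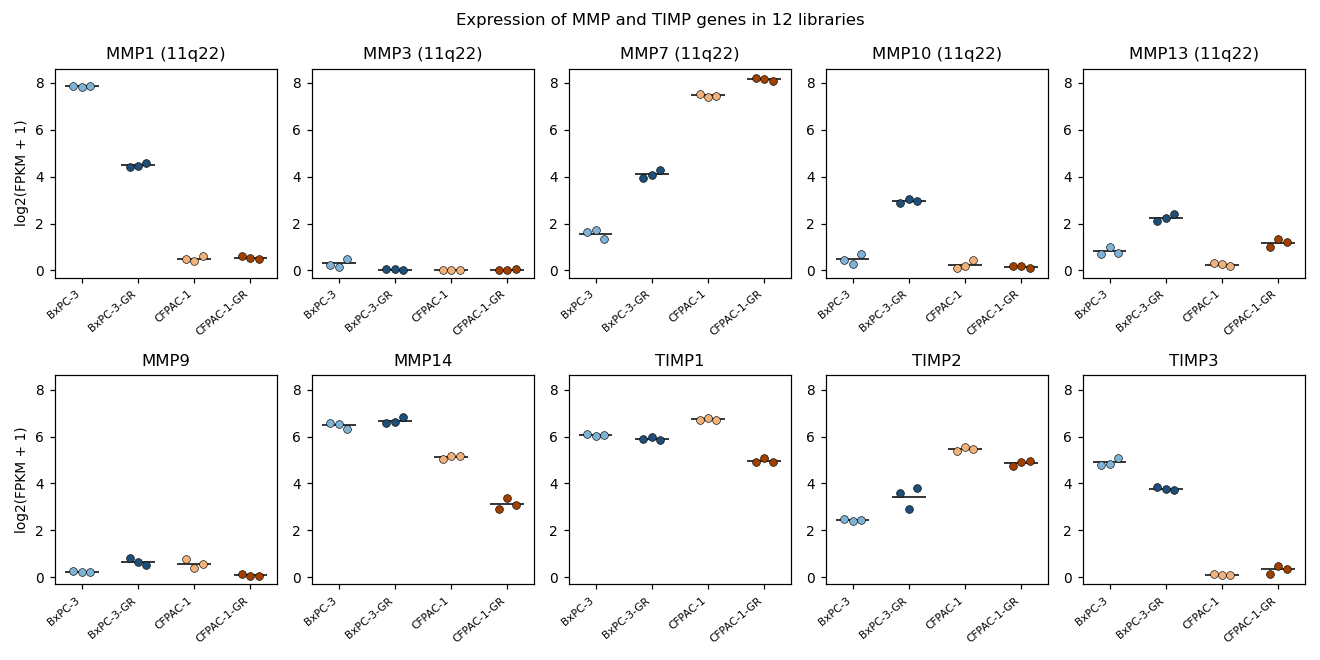
Each panel plots log2(FPKM + 1) of a member (vertical axis) in the 3 libraries of each of the 4 lines (points) with the group mean (bar); panels marked 11q22 belong to the cluster. MMP1 is high in the BxPC-3 lines, MMP7 in the CFPAC-1 lines, and TIMP3 is near 0 in both CFPAC-1 lines.

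In BxPC-3-GR the cluster members moved in opposite directions. MMP1 fell, while MMP7, MMP10 and MMP13 rose. A gene was called significantly differentially expressed (SDE) at an adjusted p under 0.05 (limma, over all genes tested) and an absolute difference above 1 in log2(FPKM + 1). Of all 11710 genes tested 7.76% were called, 4.14% higher and 3.62% lower in BxPC-3-GR. Of the 10 members, 8 passed the minimum mean of 1 FPKM, and 3 of these were called higher and 2 lower. MMP10 and MMP13, both called higher, had means of 0.408 and 0.773 FPKM in BxPC-3 and passed through their BxPC-3-GR values. By the adjusted p alone 6 of the 8 passed, as did 57.7% of all genes tested. The median log2 difference of the 8 was 0.60, beside -0.05 over all genes tested.

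MMP1 had 228, 224 and 234 FPKM in BxPC-3 and 20.3, 20.9 and 23.1 in BxPC-3-GR. Every resistant library lay far below every parental one. The mean was 10.7-fold lower (log2 difference -3.36, standard error 0.062, adjusted p = 1.3e-06 from limma), and about 890 to 1129 fragments still stood behind each resistant value. MMP7 had 2.09, 2.27 and 1.53 FPKM in BxPC-3 and 14.5, 15.9 and 18.3 in BxPC-3-GR. All resistant libraries were above all parental ones, an 8.26-fold higher mean (log2 difference 2.54, standard error 0.12, adjusted p = 2.6e-05 from limma). MMP10, stromelysin-2, which cuts proteoglycans and activates procollagenases, had 0.351, 0.226 and 0.648 FPKM in BxPC-3 and 6.29, 7.18 and 6.85 in BxPC-3-GR. The groups did not overlap, with a 16.6-fold higher mean, and the log2 difference was 2.47 (standard error 0.12, adjusted p = 2.2e-05 from limma). The pseudocount of 1 lowers this value, which was 3.84 with no filter and a pseudocount of 0.1. The parental values rested on about 8 to 19 fragments each. MMP13, collagenase-3, had 0.633, 1.02 and 0.663 FPKM in BxPC-3 and 3.35, 3.65 and 4.26 in BxPC-3-GR. It was 4.86-fold higher without overlap (log2 difference 1.43, standard error 0.11, adjusted p = 1.3e-04 from limma). MMP3, stromelysin-1, was not tested, as its mean was below the minimum. It had 0.182, 0.115 and 0.423 FPKM in BxPC-3, and 0.0359, 0.0418 and 0 in BxPC-3-GR, where each library held about 0 to 2 fragments. No fold is given at this depth.

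The make-up of the cluster's RNA differed between the lines accordingly. MMP1 made up 98.5% ± 0.119 (SD, n = 3) of the summed FPKM of the 5 genes in BxPC-3 and 44.5% ± 1.02 in BxPC-3-GR. MMP7 took 0.848% ± 0.183 before and 33.6% ± 1.15 after selection. The sum itself was 232 ± 4.61 FPKM in BxPC-3 and 48.2 ± 3.99 in BxPC-3-GR.

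Outside the cluster, TIMP3 was the only called member in this line. TIMP3, the inhibitor that stays bound to the matrix and also blocks ADAM17, had 26.5, 27.5 and 33.2 FPKM in BxPC-3 and 13.2, 12.7 and 12.3 in BxPC-3-GR. All resistant libraries were lower, by 2.28-fold in the mean (log2 difference -1.12, standard error 0.092, adjusted p = 1.6e-04 from limma). TIMP2, which inhibits MMPs and with MMP14 also presents proMMP2 for activation, had 4.67, 4.36 and 4.41 FPKM in BxPC-3 and 11.1, 6.53 and 13.1 in BxPC-3-GR. The groups were apart, but BxPC-3-GR replicate 2 was well below the other resistant libraries. The log2 difference was 0.99 (95% interval 0.44 to 1.54, adjusted p = 0.010 from limma), just short of the size criterion, and 1.26 without that library (adjusted p = 4.1e-04 from limma), where the gene was called.

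MMP14 had 93.8, 92.7 and 78.6 FPKM in BxPC-3 against 95.3, 97.3 and 112 in BxPC-3-GR. The libraries did not overlap but nearly touched, and the log2 difference was 0.20 (95% interval -0.04 to 0.44, adjusted p = 0.13 from limma). TIMP1 had 68.5, 63.0 and 65.5 FPKM against 57.8, 61.7 and 56.9, a log2 difference of -0.16 (95% interval -0.30 to -0.01, adjusted p = 0.060 from limma). These intervals leave room only for changes well under the size criterion. MMP9, gelatinase B, was not tested and had 0.197, 0.175 and 0.175 FPKM in BxPC-3 and 0.765, 0.555 and 0.448 in BxPC-3-GR. The groups did not overlap, at about 7 to 8 fragments in the parental and 26 to 45 in the resistant libraries. Groups without overlap were found for 66.1% of all genes tested in this line, so the absence of overlap alone is common. The correction for GC content and length changed no call of a member in this line.

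In CFPAC-1-GR the picture was another one. MMP14 fell, TIMP1 fell in the values as deposited but was not called after the GC correction, and no member was called higher. Of the 12051 genes tested in this line 32.2% were called, 20.5% higher and 11.7% lower. Of these calls 63.7% were higher. That share was 43.3% when libraries were scaled by the median of ratios, 36.0% when scaled by the upper quartile, and 75.0% in the GC correction. The scalings moved the median difference of all genes from 0.13 to -0.11 and -0.21, and differences of members are read against that shift. Of the 10 members 4 were tested and 2 of these were called lower. By the adjusted p alone all 4 passed, as did 79.6% of genes tested. Their median log2 difference was -1.19, beside 0.13 over all genes tested, and -0.52 after the GC correction.

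MMP14 had 31.6, 34.6 and 35.4 FPKM in CFPAC-1 and 6.58, 9.31 and 7.50 in CFPAC-1-GR. All resistant libraries were far lower, by 4.34-fold in the mean (log2 difference -2.0, standard error 0.12, adjusted p = 1.0e-05 from limma). After the GC correction it still fell by 1.19 on the log2 scale and was called (adjusted p = 1.9e-04 from limma). TIMP1 had 104, 109 and 102 FPKM in CFPAC-1 and 28.7, 32.8 and 29.1 in CFPAC-1-GR. The groups were apart, with a 3.48-fold lower mean (log2 difference -1.77, standard error 0.077, adjusted p = 6.3e-06 from limma). The GC correction left a difference of -0.81 (adjusted p = 1.3e-04 from limma), which ends the call by its size.

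MMP7 had 184, 169 and 169.8 FPKM in CFPAC-1 and 295, 287 and 264 in CFPAC-1-GR. All resistant libraries were higher, by 1.62-fold in the mean, but the log2 difference of 0.69 (standard error 0.075, adjusted p = 1.3e-04 from limma) was below the size criterion. After the GC correction 0.03 remained (adjusted p = 0.65 from limma). TIMP2 had 40.9, 45.6 and 43.6 FPKM in CFPAC-1 and 25.7, 29.4 and 29.7 in CFPAC-1-GR, a log2 difference of -0.60 (standard error 0.084, adjusted p = 4.6e-04 from limma). It was not called as deposited or after the GC correction (-0.24), but was called when scaled by the upper quartile (-1.02).

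The other 6 members had means below 1 FPKM over these 6 libraries and were not tested. MMP13 had 0.233, 0.205 and 0.126 FPKM in CFPAC-1 and 0.993, 1.51 and 1.31 in CFPAC-1-GR. The groups were apart, on about 5 to 13 fragments in the parental and 58 to 73 in the resistant libraries, and 82.1% of all genes tested in this line were apart too. MMP9 was apart in the other direction, with 0.727, 0.305 and 0.501 FPKM in CFPAC-1 and 0.118, 0.050 and 0.0551 in CFPAC-1-GR. The resistant values of MMP9 rested on about 2 to 6 fragments. MMP13 is poor in GC (38.9%) and MMP9 rich in it (62.4%), so both moved in the direction of the GC trend in this comparison. Neither has a GC-corrected value here, because neither was tested. In other fits, the GC-corrected change of MMP13 was 1.51 in BxPC-3-GR, and 1.38 after subtraction of its CFPAC-1 change. Little of the MMP13 rise in CFPAC-1-GR was thus left after the correction. TIMP3 had 0.101, 0.0689 and 0.0847 FPKM in CFPAC-1 and 0.119, 0.419 and 0.294 in CFPAC-1-GR, also without overlap, and both lines stayed near the floor. MMP1, with 0.322 to 0.515 FPKM against 0.392 to 0.512, and MMP10, with 0.0855 to 0.345 against 0.0713 to 0.152, overlapped between the groups. MMP1, the leading MMP of BxPC-3, was thus at 8 to 22 fragments per library in both CFPAC-1 lines.

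**Figure D2:**
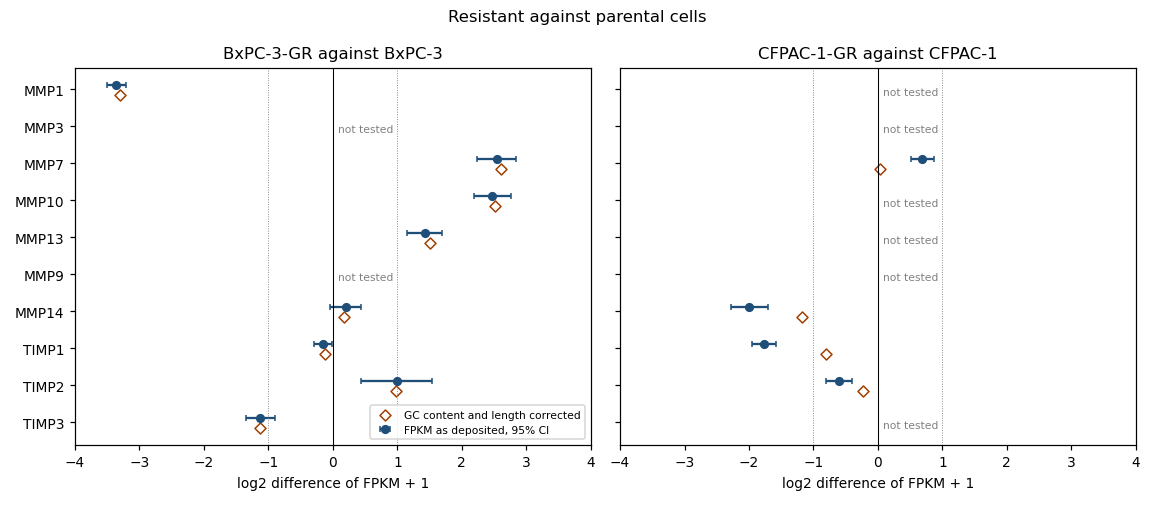
Log2 differences of FPKM + 1 (horizontal axis) of the resistant from the parental libraries, 3 against 3, for BxPC-3 on the left and CFPAC-1 on the right; filled points with 95% confidence intervals are FPKM as deposited, open diamonds are values from the GC correction, and dotted lines mark the size criterion of 1. The corrected points lie on the deposited ones in BxPC-3 and move toward 0 in CFPAC-1.

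Because the changes in the lines looked unlike, the difference between them was tested itself, as the BxPC-3 change minus the CFPAC-1 change over all 12 libraries. Of the 12210 genes tested 38.0% were called, 14.4% higher and 23.6% lower, and of the 8 members tested 5 were called higher and 2 lower. All 8 passed by the adjusted p alone, as did 76.6% of genes. Only MMP7, MMP14, TIMP1 and TIMP2 were tested in both lines. MMP1, MMP10, MMP13 and TIMP3 were below the minimum mean in the CFPAC-1 lines and entered this test through the BxPC-3 libraries. On 2 to 33 fragments per CFPAC-1 library, and with a pseudocount of 1 that presses low values toward 0, the values for MMP1, MMP10 and TIMP3 mostly restate their change in BxPC-3-GR and do not measure a change in CFPAC-1-GR. The change of MMP1 was lower in the BxPC-3 lines by 3.40 log2 units (standard error 0.095, adjusted p = 1.1e-09 from limma). MMP10 differed by 2.56 (standard error 0.16, adjusted p = 9.9e-08 from limma) and MMP14 by 2.20 (standard error 0.16, adjusted p = 4.1e-07 from limma). MMP7 differed by 1.85 (standard error 0.15, adjusted p = 7.5e-07 from limma), TIMP2 by 1.59 (standard error 0.26, adjusted p = 1.7e-04 from limma) and TIMP3 by -1.35 (standard error 0.14, adjusted p = 4.5e-06 from limma). After the GC correction MMP14 had 1.31, TIMP2 1.19 and MMP7 2.53, and each was still called. The values of MMP10 and TIMP3 moved to 4.16 and -2.12 with no filter and a pseudocount of 0.1. TIMP1 differed by 1.61 (standard error 0.092, adjusted p = 5.8e-08 from limma), and the GC correction, which left 0.64, ended that call. For MMP13 the difference of 0.50 (95% interval 0.15 to 0.84) was below the size criterion. It was -0.09 with a pseudocount of 0.1, and 1.38 and called after the GC correction, so its sign depends on these choices.

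The balance of MMP and TIMP RNA among the members moved in opposite directions in the BxPC-3 and CFPAC-1 lines. In BxPC-3, the 7 MMP genes summed to 321 ± 4.85 FPKM (SD, n = 3) and the 3 TIMP genes to 99.2 ± 4.13. In BxPC-3-GR these sums were 150.4 ± 13 and 81.8 ± 0.805. The ratio of the sums was 3.07 to 3.38 in the BxPC-3 libraries and 1.71 to 2.01 in those of BxPC-3-GR, without overlap. In CFPAC-1, the MMP sum was 209.6 ± 6.94 and the TIMP sum 148.7 ± 5.20 FPKM, against 292 ± 16.1 and 58.7 ± 4.07 in CFPAC-1-GR. Here the resistant libraries had ratios of 4.63 to 5.56 and the parental ones of 1.32 to 1.5, again without overlap. After the GC correction within each line, the ratio of the tested members was 2.16 ± 0.163 in CFPAC-1 and 3.15 ± 0.139 in CFPAC-1-GR (SD, n = 3 each), where as deposited it was 1.40 ± 0.0850 and 4.98 ± 0.493. The gap between these lines was thus narrower but in the same direction. The corrected MMP sums of the tested members overlapped, at 226 to 243 in the resistant and 241 to 251 in the parental libraries, so the higher MMP sum of CFPAC-1-GR was seen only as deposited. The corrected TIMP sums were 113 ± 6.18 and 74.7 ± 2.78 (SD, n = 3 each) and did not overlap. The corrected ratios in the BxPC-3 lines were 3.22 ± 0.210 and 1.82 ± 0.157, next to 3.24 ± 0.162 and 1.83 ± 0.154 as deposited. A ratio of RNA sums does not measure free enzyme.

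The genes that made up the sums also changed. MMP1 contributed 71.4% ± 2.31 of the MMP sum in BxPC-3 and 14.3% ± 0.266 in BxPC-3-GR, where MMP14 took 67.5% ± 0.606. MMP7 contributed 83.2% ± 1.41 in CFPAC-1 and 96.7% ± 0.541 in CFPAC-1-GR as deposited. After the GC correction its share of the sum of MMP7 and MMP14 was 89.6% ± 0.895 and 95.5% ± 0.55, a smaller shift. Among the inhibitors, TIMP3 was 29.2% ± 2.82 of the TIMP sum in BxPC-3 and 0.0573% ± 0.0124 in CFPAC-1. In CFPAC-1 the second inhibitor was TIMP2, with 29.2% ± 0.901.

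**Figure D3:**
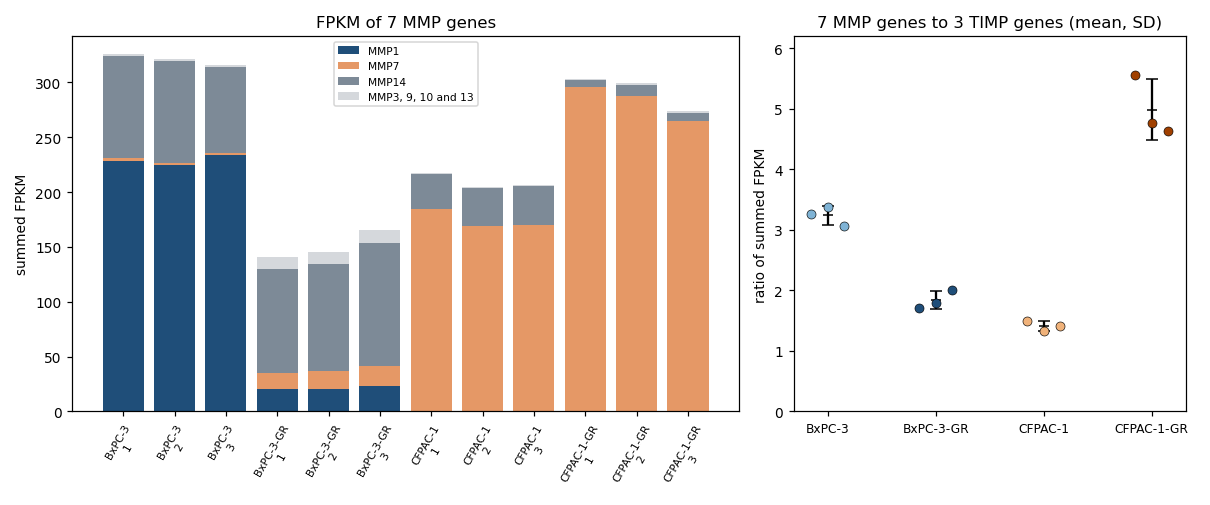
On the left, stacked bars give the deposited FPKM of MMP1, MMP7, MMP14 and the sum of the other 4 MMP members in each of the 12 libraries; on the right, points give the ratio of the summed FPKM of the 7 MMP genes to that of the 3 TIMP genes per library, with the mean and SD of each line (n = 3). The ratio is lower in BxPC-3-GR than in BxPC-3 and higher in CFPAC-1-GR than in CFPAC-1.

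The parental lines were compared next, to show from which levels the resistant lines started. These comparisons use the same libraries as those above and are not independent of them. The labels give the same medium for all lines, whereas the methods name another one, IMDM, for CFPAC-1, so cell line and medium cannot be told apart here. Of 11842 genes tested 44.5% were called, 24.7% higher and 19.8% lower in BxPC-3, and of the 6 members tested 3 were called higher and 2 lower. All 6 passed by the adjusted p alone, as did 84.2% of genes. MMP1 and TIMP3 were below 1 FPKM in CFPAC-1 and entered this test through the BxPC-3 libraries. MMP1 was higher in BxPC-3 by 7.35 log2 units (standard error 0.066, adjusted p = 3.1e-08 from limma), a mean of 229 against 0.409 FPKM. TIMP3 was higher by 4.79 (standard error 0.091, adjusted p = 1.1e-07 from limma), a mean of 29 against 0.0847 FPKM. MMP14 was also higher, 2.61-fold in the mean (log2 difference 1.36, standard error 0.088, adjusted p = 9.7e-06 from limma). MMP7 was lower by 5.89 on the log2 scale (log2 difference -5.89, standard error 0.11, adjusted p = 9.5e-08 from limma) and TIMP2 had a log2 difference of -3.02 (standard error 0.061, adjusted p = 1.3e-07 from limma). All of these groups were apart, as were those of 85.6% of genes tested. TIMP1 had a log2 difference of -0.67 that was not called, and the GC correction turned it to 0.36. All 5 calls remained after the correction, with MMP1 at 6.92, TIMP3 at 4.82, MMP14 at 2.21, MMP7 at -6.59 and TIMP2 at -2.60.

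Between the resistant lines, 17.1% of 12330 genes were called, 6.80% higher and 10.3% lower in BxPC-3-GR. Of the 8 members tested 5 were called higher and 2 lower. Groups were apart for all 8 and for 71.0% of genes tested, and all 8 and 65.3% of genes passed by the adjusted p alone. MMP1, MMP10 and TIMP3 were below 1 FPKM in CFPAC-1-GR and entered this test through the BxPC-3-GR libraries. MMP1 had a log2 difference of 3.95, MMP14 of 3.55, TIMP3 of 3.43 and MMP10 of 2.80 (adjusted p between 1.4e-07 and 1.5e-06 from limma). MMP7 had a difference of -4.04 (adjusted p = 3.5e-07 from limma) and TIMP2 of -1.42 (adjusted p = 0.0014 from limma). The difference of MMP13 was 1.07 (adjusted p = 2.0e-04 from limma), and its call was lost without BxPC-3-GR replicate 3 (0.99) or CFPAC-1-GR replicate 1 (0.98). TIMP1 had 0.94, which was not called as deposited and was called under scaling by the median of ratios (1.12) and by the upper quartile (1.07). The gap in MMP1 was 7.35 log2 units between the parental and 3.95 between the resistant lines, and the gap in MMP14 was 1.36 and 3.55. After the GC correction these gaps were 6.92 and 4.01 for MMP1, and 2.21 and 3.52 for MMP14. For MMP14 the change within the lines differed in the test given above, by 2.20 as deposited and 1.31 after the GC correction.

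The cluster's neighborhood was described from YAP1 to DYNC2H1, a stretch of 1369 kb on chromosome 11. Of 35 other genes annotated there, 6 reached the minimum mean in the BxPC-3 lines. In these lines 4.14% of all genes tested were called higher, and so was 1 of the 6. This was BIRC3, an inhibitor of apoptosis and a target of NF-kB, with 2.42, 2.19 and 2.55 FPKM in BxPC-3 and 10.8, 10.3 and 11.5 in BxPC-3-GR (log2 difference 1.81, adjusted p = 9.2e-06 from limma). Its neighbor BIRC2, a related inhibitor of apoptosis, had a difference of 0.14 (adjusted p = 0.077 from limma) and TMEM123, a cell surface protein, of 0.82, and neither was called. MMP1 lies 267.4 kb and MMP10 249.9 kb from the start of MMP7, and these neighbors in the cluster moved in opposite directions. In the CFPAC-1 lines 5 neighbors were tested and 4 were called higher, where 20.5% of all genes were, and 3 calls were left after the GC correction. Over all genes 1134 of 12030 were called after that correction, 75.0% of them higher. BIRC3 had 1.54, 1.40 and 0.566 FPKM in CFPAC-1 and 16.3, 9.93 and 12.7 in CFPAC-1-GR, a log2 difference of 2.70 (adjusted p = 4.2e-05 from limma). TMEM123 differed by 2.16 and YAP1, a coactivator of the Hippo pathway, by 1.80, and after the GC correction these 3 genes had 1.48, 1.19 and 1.11 and remained called. BIRC2 had 1.06, which the correction took to 0.04 and which was not called without CFPAC-1 replicate 1, CFPAC-1-GR replicate 2 or CFPAC-1-GR replicate 3 (lowest value 0.96). With means of 0.755 FPKM in CFPAC-1 and 2.66 in CFPAC-1-GR, BIRC2 passed the minimum mean through its resistant libraries.

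**Figure D4:**
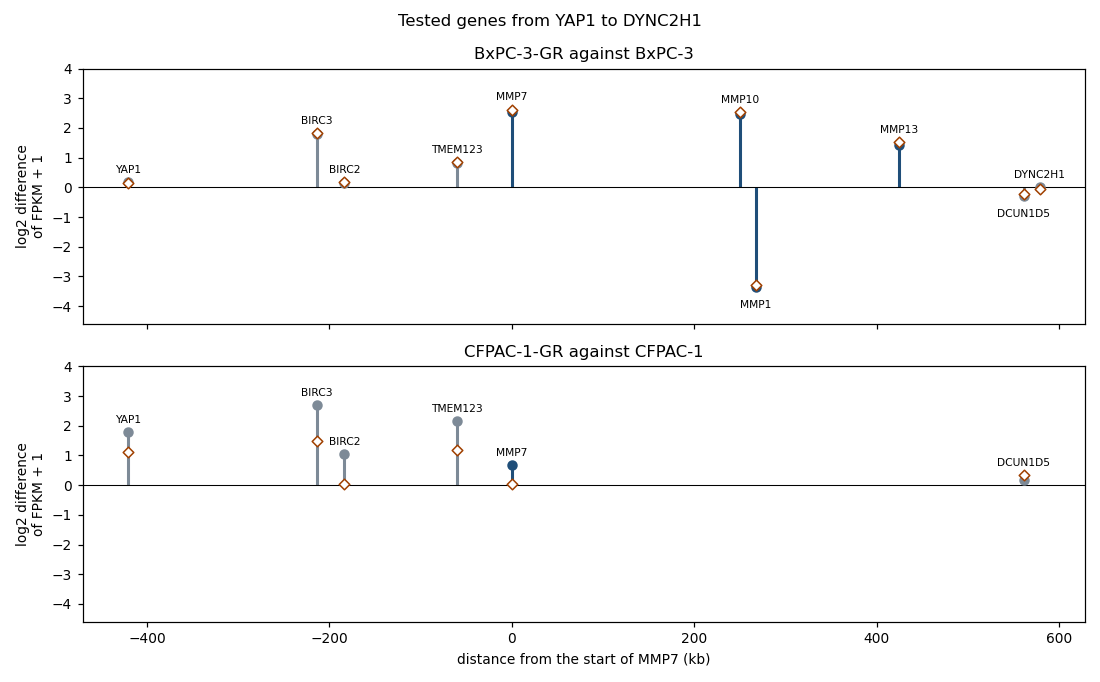
Log2 differences of FPKM + 1 (vertical axis) of resistant from parental libraries for each tested gene between YAP1 and DYNC2H1, placed by the distance of its start from that of MMP7 (horizontal axis, kb); blue marks cluster members, grey other genes, and open diamonds the values from the GC correction. In the upper panel (BxPC-3) MMP1 points down between MMP10 and MMP13, which point up; in the lower panel (CFPAC-1) MMP7 is the only cluster member tested.

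RefSeq promoter windows, 250 bases before to 50 after the start, were found for 5 of the 10 members (MMP7, MMP10, MMP14, TIMP1 and TIMP3). The windows of MMP7 and MMP10 are printed because both genes rose in BxPC-3-GR (GRCh38.p14, 5′ to 3′ on the gene's strand). Capitals mark matches to 3 kinds of motif. The AP-1 motif was searched as TGAGTCA and in the looser form TGANTCA. The ETS motif was AGGAAG, which reads as CTTCCT when it lies on the other strand. The TATA box was searched as the letters TATAAA on the gene's strand.
MMP7, chr11:102530698-102530997, minus strand: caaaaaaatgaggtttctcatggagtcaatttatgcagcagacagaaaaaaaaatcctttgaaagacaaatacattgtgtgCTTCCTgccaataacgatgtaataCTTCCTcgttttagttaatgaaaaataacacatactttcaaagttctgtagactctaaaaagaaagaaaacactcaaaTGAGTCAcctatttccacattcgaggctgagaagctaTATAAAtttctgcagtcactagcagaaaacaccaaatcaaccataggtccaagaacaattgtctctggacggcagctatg
MMP10, chr11:102780579-102780878, minus strand: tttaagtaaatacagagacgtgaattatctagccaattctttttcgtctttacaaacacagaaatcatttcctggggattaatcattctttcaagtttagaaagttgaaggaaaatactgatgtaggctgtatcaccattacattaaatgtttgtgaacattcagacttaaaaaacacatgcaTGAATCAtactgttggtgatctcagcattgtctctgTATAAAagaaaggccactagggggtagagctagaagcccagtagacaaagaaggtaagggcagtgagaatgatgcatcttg
MMP7 held TGAGTCA 67 bases and TATAAA 30 bases before its start, with CTTCCT at 169 and 145 bases before. MMP10 held TGAATCA 67 bases and TATAAA 31 bases before its start. TIMP1 held AGGAAG, and MMP14 and TIMP3 held none of these motifs. Of 35116 RefSeq windows of the same length, TGAGTCA was found in 4.95%, TGANTCA, which includes TGAGTCA, in 7.71% and AGGAAG in 33.6% on either strand, and TATAAA in 7.33% on the gene's strand. A match is a string of letters and was not tested for binding.

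Among 20 genes for AP-1, ETS and other factors with known sites in MMP promoters, 16 were tested in the BxPC-3 lines. Of these 2 were called higher and 1 lower, where 4.14% and 3.62% of all genes tested were. The median of the 16 was 0.44, beside -0.05 over all genes. FOSL1, an AP-1 subunit, had 32, 32.6 and 27.5 FPKM in BxPC-3 and 9.63, 9.85 and 4.87 in BxPC-3-GR (log2 difference -1.85, adjusted p = 0.0011 from limma). ELF3, an epithelial ETS factor, rose from 3.80, 4.21 and 3.88 FPKM to 22, 25.1 and 27.7 (log2 difference 2.38, adjusted p = 1.1e-05 from limma). FOSL2, another AP-1 subunit, had 16.1, 5.24 and 5.38 FPKM in BxPC-3, where replicate 1 stood apart, and 23.4, 23.6 and 24.2 in BxPC-3-GR. Its difference of 1.49 (adjusted p = 0.017 from limma) was 1.97 without that replicate and was not called without BxPC-3 replicate 2, BxPC-3 replicate 3 or BxPC-3-GR replicate 3, with 1.24 as the lowest value. In the CFPAC-1 lines 17 were tested, with 2 higher, 4 lower and a median of -0.35 beside 0.13 over all genes, of which 32.2% were called. After the GC correction the median was 0.04 and 1 call was left. FOSL1 had 71.0, 92.0 and 92.9 FPKM in CFPAC-1 and 17.9, 20.4 and 21.0 in CFPAC-1-GR (log2 difference -2.05, adjusted p = 1.0e-05 from limma, and -0.99 after the GC correction). JUND, an AP-1 subunit, had -1.52, which the correction took to -0.29, and ELK3, an ETS factor, had 1.72 and 1.03 after it.

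Of 23 activators and other regulators of MMP activity, 16 were tested in the BxPC-3 lines and 3 were called in each direction. Over all genes tested 4.14% were called higher and 3.62% lower. PLAT, the tissue plasminogen activator, rose from 8.59, 7.91 and 8.93 FPKM to 82.1, 89.3 and 99.6 (log2 difference 3.27, adjusted p = 3.2e-06 from limma). PLAUR, the urokinase receptor, had a log2 difference of -1.28 (adjusted p = 1.2e-04 from limma). LCN2, lipocalin-2, which binds and stabilizes MMP9, rose by 1.40 (adjusted p = 6.0e-05 from limma), with 151 to 167 FPKM in BxPC-3 and 388 to 465 in BxPC-3-GR. PLAU, the urokinase, had a difference of 0.62 and FURIN, a convertase that activates MMP14, of -0.43, and neither was called. In the CFPAC-1 lines 16 were tested and 3 were called in each direction, a share near the 32.2% over all genes. After the GC correction 4 of the 16 were called, namely PLAU, KLK6, THBS1 and a gene not called as deposited. PLAU had 617, 633 and 594 FPKM in CFPAC-1 and 154, 229 and 224 in CFPAC-1-GR (log2 difference -1.62, adjusted p = 7.0e-05 from limma, and -1.07 after the GC correction). LCN2 had -1.13 there, which the correction took to -0.24, and FURIN had -0.61 and was not called. KLK6, a secreted serine protease, rose by 1.73 and THBS1, a matrix protein that binds MMPs, by 1.78, and both remained called after the correction. RECK, a membrane inhibitor of MMPs, was below 1 FPKM in all 12 libraries.

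**Figure D5:**
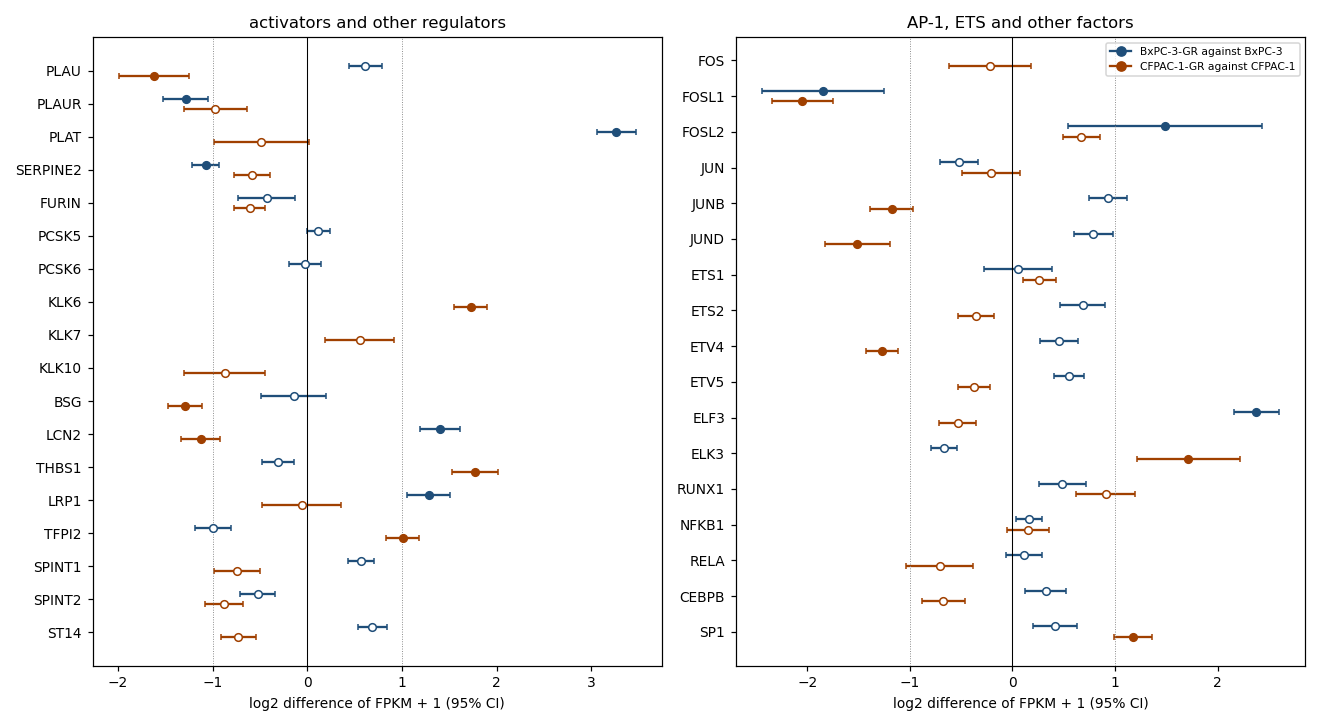
Log2 differences of FPKM + 1 with 95% confidence intervals (horizontal axis) of resistant from parental libraries for tested genes among regulators of MMP activity (left, without 1 gene not reported here) and among AP-1, ETS and other factors (right), blue for BxPC-3 and brown for CFPAC-1, with filled points for called genes. PLAT and ELF3 lie farthest to the right in BxPC-3-GR, and FOSL1 is called lower in both lines as deposited, but in CFPAC-1 not after the GC correction (-0.99).

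The remaining members of the MMP and TIMP families mostly lay below the minimum level. Of 17 such genes, MMP15 alone was tested in the BxPC-3 lines and MMP15 and MMP24 in the CFPAC-1 lines, and none was called (limma). By the adjusted p alone 0 of them passed in the BxPC-3 lines and 2 in the CFPAC-1 lines, as did 57.7% and 79.6% of all genes tested. MMP24, a membrane-anchored MMP, had 23.7, 21.5 and 21.5 FPKM in CFPAC-1 and 11.7, 14.2 and 14.5 in CFPAC-1-GR (log2 difference -0.69, adjusted p = 5.0e-04 from limma, and 0.21 after the GC correction). MMP15, also membrane-anchored, had 40.9, 45.5 and 46.2 FPKM in CFPAC-1 and 23.8, 23.0 and 25.3 in CFPAC-1-GR (log2 difference -0.85, adjusted p = 5.4e-05 from limma, and 0.19 after the GC correction). MMP2, the gelatinase that MMP14 and TIMP2 jointly activate, stayed at or below 0.0429 FPKM in every library. Of 13 ADAM and ADAMTS proteases, 7 were tested in the BxPC-3 lines and 1 was called higher, ADAM9 with 1.06. There 4.14% of all genes tested were called higher. In the CFPAC-1 lines, where 32.2% of all genes were called, 9 were tested, 4 called higher and 3 lower, and after the GC correction 1 remained, ADAM19 with -1.70 as deposited and -1.42 corrected. ADAM10, a sheddase of cell surface proteins, had 2.03 and 0.69 corrected, and ADAM9 had 1.67 and 0.61. ADAM17, the sheddase that TIMP3 inhibits, had 0.70 in the BxPC-3 lines and was not called, and 1.30 in the CFPAC-1 lines, where the correction left 0.07.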

How the data were processed

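Total RNA of the 2 parental and 2 resistant lines was sequenced, 3 replicates per line. The authors deposited FPKM values for 58302 genes, and the notes of the submitters name Trimmomatic 0.27, FastQC 0.10.1 and TopHat2 2.0.8 and the builds hg19 and GRCh38. The gene positions in the table are those of GRCh38. The counting program and strand setting are not given in the sources used here. FPKM are scaled by length and library total, not for GC content. Genes whose mean over the compared libraries reached 1 FPKM were tested with limma 3.58.1 in R 4.3.3 on log2(FPKM + 1), with Benjamini-Hochberg adjustment over all genes tested, and called at an adjusted p under 0.05 and an absolute difference above 1. The methods name DESeq2, which needs counts and was not used. With 3 against 3 libraries an exact permutation test cannot give a p below 0.10, so none was run. Fragments behind a value were estimated from its FPKM, exon length and the total implied by single-exon genes. GC content and length effects were removed by splines with 5 degrees of freedom. Scripts were tested on simulated data.

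Members, lists and tests were chosen with earlier results of these data known. Named were all 10 members, the 3 largest called differences of each list per line, regulators told beside a member, BIRC2, BIRC3 and TMEM123, and the 3 genes nearest to the member with the widest range. Alternatives were another pseudocount, no filter, 2 scalings, 1 fit over all libraries, a block for the replicate number, the GC correction (alone and with the block) and each library left out. MMP12, MMP15, MMP24 and the marker genes were named beside this rule, after their values were seen. Of the regulators, 1 gene counted in the list is not reported here. The corrected MMP and TIMP sums, shares and ratio were added after the values were seen.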

Additional observations from a re-analysis of the deposited data

Results flagged for a closer look

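For 7 of the 8 members tested, the resistant-against-parental change differed between the BxPC-3 and CFPAC-1 lines in a test of the difference itself (limma, all 12 libraries), and 38.0% of all genes tested did so. Of these 7, MMP7, MMP14, TIMP1 and TIMP2 were tested in both lines. MMP1, MMP10 and TIMP3 were below the minimum mean in the CFPAC-1 lines, and their values mostly restate the change in BxPC-3-GR. The differences, BxPC-3 change minus CFPAC-1 change in log2(FPKM + 1), were -3.40 for MMP1, 1.85 for MMP7, 2.56 for MMP10, 2.20 for MMP14, 1.61 for TIMP1, 1.59 for TIMP2 and -1.35 for TIMP3. All 7 kept their direction and call with each library left out in turn. With the trends with GC content and length removed, 6 were still called, and TIMP1 had 0.64. Among the 6, MMP14 had 1.31, TIMP2 1.19 and MMP7 2.53.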

How the results depend on the processing

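With no filter and a pseudocount of 0.1, 8 members were called in BxPC-3-GR against BxPC-3 (5 as reported), 4 in CFPAC-1-GR against CFPAC-1 (2 as reported) and 8 in BxPC-3 against CFPAC-1 (5 as reported). The added calls in the resistant lines were those of MMP3, MMP9 and TIMP2 for BxPC-3-GR, and of MMP9 and MMP13 for CFPAC-1-GR. In CFPAC-1-GR, MMP13, poor in GC (38.9%), was higher and MMP9, rich in GC (62.4%), was lower. This setting has no GC correction. The GC content and length correction, alone or with the replicate block, left 1 call in CFPAC-1-GR. TIMP1 between the parental lines turned from -0.67 to 0.36 under that correction, and the difference between the lines for MMP13 turned from 0.50 to -0.088 with a pseudocount of 0.1, with or without the filter. TIMP2 in BxPC-3-GR was called with a pseudocount of 0.1 (1.12), with median-of-ratios scaling (1.03) and without BxPC-3 replicate 1 (1.02) or BxPC-3-GR replicate 2 (1.26), and its value ranged from 0.80 to 1.26 with 1 library left out. Over all genes, no filter and a pseudocount of 0.1 took the calls from 909 to 2769 for BxPC-3-GR (1429 with the filter), from 3880 to 8509 for CFPAC-1-GR, from 5274 to 11018 between the parental lines, from 2111 to 6565 between the resistant lines and from 4643 to 9558 for the difference between the lines. With the GC correction, alone and with the replicate block, the calls numbered 1134 and 1131 for CFPAC-1-GR. Between the parental lines they numbered 3195 and 3192, and for the difference between the lines 2386 and 2383. With a library left out, the members called numbered 5 to 6 for BxPC-3-GR, 2 for CFPAC-1-GR, 5 between the parental lines, 6 to 7 between the resistant lines and 7 for the difference between the lines. The corrected MMP to TIMP ratio was an alternative chosen after seeing the data and moved from 1.40 to 2.16 in CFPAC-1 and from 4.98 to 3.15 in CFPAC-1-GR, and the corrected MMP sum, added in the same way, from 208 to 244 and from 289.9 to 235 FPKM. Of the values of single members under the alternatives, 552 kept direction and call, 20 gained a call, 6 lost it and 4 turned. Same-numbered libraries did not deviate together (correlations from -0.13 to 0.09), and in no pair of groups did every library correlate best with its own number. The replicate block changed none of the 34 member results it was run on, with MMP1 in BxPC-3-GR at -3.36. At this depth MMP3 and MMP9, and MMP1, MMP10 and TIMP3 in the CFPAC-1 lines, rested on fewer than 50 fragments per library, and changes there were not measurable with precision. Intervals from fragments cover counting error only.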

Other observations

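MMP12, the macrophage elastase gene between MMP3 and MMP13, was chosen after its values were seen. It had 0.0307, 0.0816 and 0.0937 FPKM in BxPC-3 and 1.06, 1.36 and 1.48 in BxPC-3-GR, without overlap, on about 1 to 3 and 50 to 69 fragments per library. It was not tested, because its mean was below 1 FPKM, and both CFPAC-1 lines had at most 1 fragment. Its direction was that of MMP7, MMP10 and MMP13.

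MMP1 had the widest range of group means among the members (7.35 in log2(FPKM + 1)). The 3 genes closest to it over the 12 libraries, by the root mean square distance of centred log2 values among 12210 genes, were KRT6A (0.518), KRT5 (0.643) and SPRR1B (0.696), which encode keratins of stratified epithelium and a protein of the cornified envelope. KRT6A had 452 ± 38.1 FPKM in BxPC-3 and 109 ± 4.39 in BxPC-3-GR (SD, n = 3 each), and 2.68 ± 1.0 and 3.12 ± 0.355 in the CFPAC-1 lines. SPRR1B had 330.1 ± 17.6 FPKM in BxPC-3 and 8.18 ± 1.25 in BxPC-3-GR. This order describes the 4 lines and was not tested.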
